A study of Mus musculus with 6 samples.

Results

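Embryonic stem cells (ESCs) of the mouse make their own fibroblast growth factor, FGF4, and the genes described here are that ligand, its receptors and the transcripts through which the pathway is read and restrained: *Fgf4*, *Fgfr1*, *Fgfr2*, *Spry1*, *Spry2*, *Spry4*, *Dusp4*, *Dusp6*, *Etv4* and *Etv5*. They are 10 of the 19489 genes in the expression table and were looked up by gene symbol. The set was chosen with earlier results of these data known. All 10 were found, each under its own symbol, and all 10 passed the filter for low expression. The filter asked for a mean of at least 0.5 FPKM, a count of fragments scaled to transcript length and library size, which is the unit of every level below.

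The study made mouse ESCs that overexpress *Dppa3* (OE ESCs), a maternal factor of the oocyte and early embryo, and sequenced RNA from them and from control (Con) ESCs. There were 6 libraries, 3 per genotype. They are Con-1, Con-2 and Con-D7, and OE-1, OE-2 and OE-D7, with replicate number 3 for each D7 library. The labels do not say what D7 stands for, and the 4 libraries without it are called D0 here, after the heading that the study's supplementary table gives their averages.

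The Con cells carry the genotype label wild type and the OE cells the label *Dppa3* over expression. According to the methods, *Dppa3* was driven by a CAG promoter in a pLch3.7 vector, controls received the empty vector, cells were selected with puromycin, and stable lines came from picked colonies. The cell line used for RNA sequencing was not named for these libraries. All 6 libraries share 1 growth protocol, a medium with serum and leukaemia inhibitory factor (LIF), and the labels give no other medium for D7. The strain label differs between all 6 libraries and runs in sample order. The methods state in general that results came from independent experiments, but neither they nor the labels say it of these libraries. The p-values therefore reflect no more than the spread among these 6 libraries, and that spread may be technical.

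FGF4 binds FGF receptors on ESCs and signals through RAS, RAF and MEK to the kinases ERK1/2, which push the cells out of self-renewal and towards lineage commitment. ERK activity switches on genes that dampen it, among them the Sprouty proteins, which act upstream in the cascade, and the dual-specificity phosphatases, which remove phosphate from MAP kinases. The ETS factors *Etv4* and *Etv5* are transcribed in response to the pathway, so their transcripts are commonly read as its output. FGFR1 is the main receptor of the epiblast, and FGFR2 is typical of primitive endoderm and trophectoderm.

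Sequencing depth was nearly equal, from 17408954 to 18176939 estimated reads assigned to genes. *Dppa3* itself stood at 6.09 and 3.89 FPKM in Con-1 and Con-2 and at 278.79 and 278.82 FPKM in OE-1 and OE-2, but at 26.22 FPKM in Con-D7 and 130.96 FPKM in OE-D7, so the D7 pair differed less in the overexpressed gene than the other pairs. Libraries of 1 replicate number also deviated together from their genotype's mean in both genotypes. The pluripotency transcripts were present in all 6 libraries, with *Pou5f1* between 311.64 and 682.98 FPKM.

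Between D0 and D7 the receptors rose, *Spry2*, *Spry4* and *Etv4* fell, and the ligand *Fgf4* stayed within its D0 range in one D7 library and just above it in the other. Of the 10 genes, 5 passed the test in edgeR (Benjamini-Hochberg adjusted p below 0.05), 2 higher and 3 lower, where 9.83% of all 13809 genes tested did so, 6.77% higher and 3.06% lower. With the replicate number as a random block 2 of the 10 were called, *Fgfr2* and *Etv4*, and none passed in edgeR without Con-D7 or without OE-D7. Only number 3 carries D7, so p-values with this random block can be too small, here and below. The D7 levels of 8 of the 10 lay outside the D0 range in both libraries, 4 above and 4 below, compared with 47.1% of all genes, 23.6% in each direction. In OE against Con without the D7 libraries none of the 10 was called, but neither was any of the 13494 genes tested (0%), *Dppa3* included. In bulk RNA, fewer cells of a type and less RNA per cell cannot be told apart, and this applies to every level below.

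**Figure D1:**
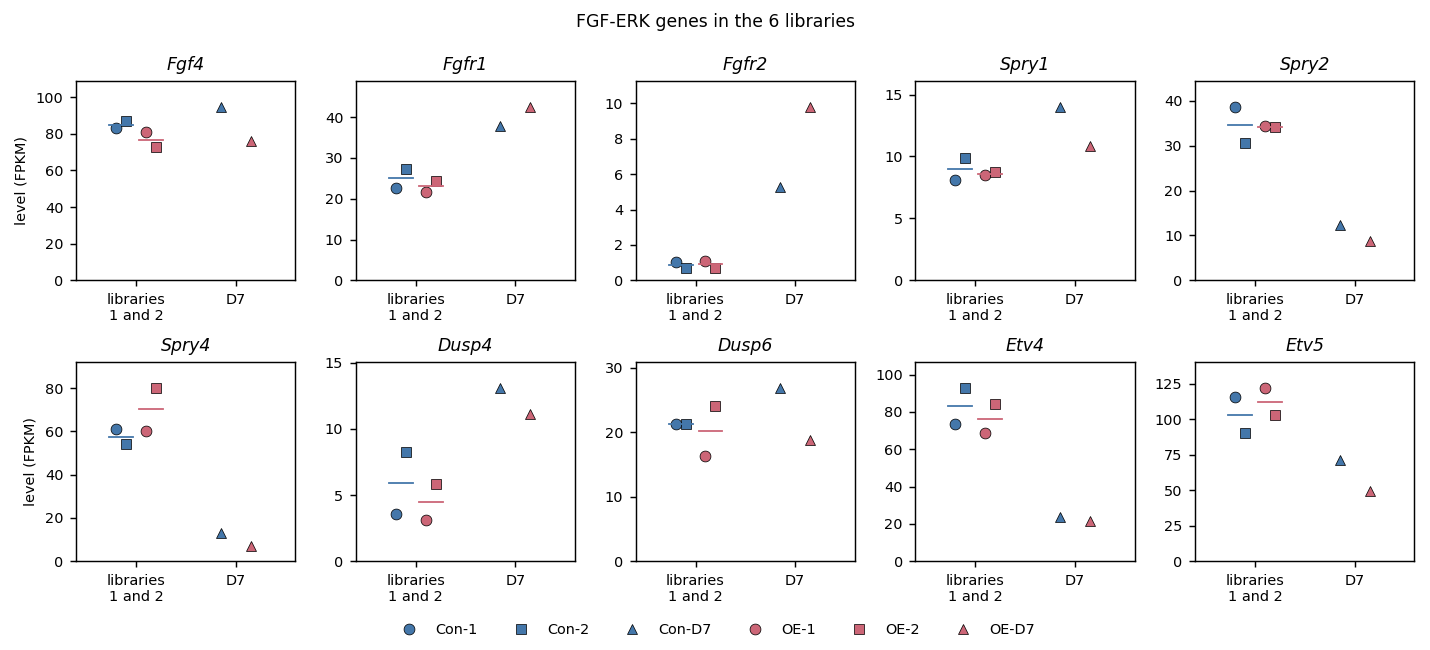
Levels of the 10 FGF-ERK genes in FPKM (vertical axes, linear, each from 0) in every library; circles are libraries 1, squares libraries 2 and triangles D7, blue for Con and red for OE, and short lines mark the mean of libraries 1 and 2 of a genotype. Both D7 points lie above the other 4 for *Fgfr1*, *Fgfr2*, *Spry1* and *Dusp4*, below them for *Spry2*, *Spry4*, *Etv4* and *Etv5*, and among them in at least 1 library for *Fgf4* and *Dusp6*.

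*Fgf4* (chr7:144861386-144865245, GRCm38.p6), the ligand, is switched on in pluripotent cells by OCT4 and SOX2. Its level was 83.01 and 86.93 FPKM in Con-1 and Con-2, 80.92 and 72.62 in OE-1 and OE-2, 94.53 in Con-D7 and 75.77 in OE-D7. The D7 libraries thus bracketed the D0 mean of 80.9 ± 6.04 FPKM (SD, n = 4). The log2 fold change of D7 over D0 was 0.06 with a 95% confidence interval from -0.22 to 0.34 (edgeR adjusted p = 0.753). In the D7 libraries *Fgf4* had the highest FPKM of the 10 genes, having ranked from the 2nd to the 4th at D0.

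*Fgfr1* (chr8:25518759-25575718) encodes the receptor that carries most of the FGF signal in ESCs. It was measured at 22.58 and 27.36 FPKM in Con-1 and Con-2 and at 21.70 and 24.35 in OE-1 and OE-2, against 37.72 in Con-D7 and 42.46 in OE-D7. Both D7 levels lay above all 4 others, 1.51-fold over D0 in Con and 1.84-fold in OE. *Fgfr1* rose by a log2 fold change of 0.70 ± 0.11 (SE; edgeR adjusted p = 0.0223). With the replicate number as a random block in limma voom the log2 fold change was again 0.70 but the call was lost (adjusted p = 0.206 with an estimated correlation). The same limma voom fit without the block kept it (adjusted p = 0.0217).

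*Fgfr2* (chr7:130162451-130266808) was the lowest of the 10 genes in FPKM at D0 and the one with the largest log2 fold change by size. Its D0 levels were 1.04, 0.69, 1.12 and 0.68 FPKM in Con-1, Con-2, OE-1 and OE-2, from 97, 70, 105 and 65 estimated reads, and their mean of 0.882 FPKM passed the filter without the D7 libraries. At D7 it reached 5.26 FPKM in Con-D7 and 9.79 in OE-D7, from 476 and 873 reads. The D7 level was 6.08-fold that of D0 in Con and 10.9-fold in OE, and the groups were far apart. *Fgfr2* rose by a log2 fold change of 2.96 ± 0.32 (SE; edgeR adjusted p = 0.0087), and the call held with the random block at 3.09 (adjusted p = 0.0422 with an estimated correlation).

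The receptors rose by unequal amounts, and the ratio between them was lower in both D7 libraries than in any D0 library. *Fgfr1* exceeded *Fgfr2* in FPKM by 21.7-fold in Con-1, 39.7-fold in Con-2, 19.4-fold in OE-1 and 35.8-fold in OE-2, but only by 7.17-fold in Con-D7 and 4.34-fold in OE-D7. *Fgfr2* supplied 2.46% to 4.91% of the summed FPKM of the pair at D0, 12.2% in Con-D7 and 18.7% in OE-D7. *Fgfr1* remained the more abundant receptor transcript in all 6 libraries.

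*Spry1* (chr3:37639947-37644599), an inhibitor of receptor tyrosine kinase signalling, was low and even at D0. It stood at 8.09, 9.87, 8.53 and 8.71 FPKM in Con-1, Con-2, OE-1 and OE-2, and at 13.99 in Con-D7 and 10.88 in OE-D7. Both D7 libraries were above the other 4, with a log2 fold change of 0.48 and an interval from 0.12 to 0.85, but the difference did not pass adjustment over all genes (edgeR adjusted p = 0.0960).

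*Spry2* (chr14:105891947-105896819) and *Spry4* encode the inhibitors of the same family that were more abundant in D0 ESCs. *Spry2* was at 38.61, 30.53, 34.35 and 34.11 FPKM in Con-1, Con-2, OE-1 and OE-2, and at 12.39 in Con-D7 and 8.77 in OE-D7. *Spry4* was at 60.96, 54.20, 60.14 and 80.08 FPKM in the same D0 order, and at 12.81 in Con-D7 and 6.87 in OE-D7. Neither gene's D7 levels came near the D0 range. *Spry2* fell by 1.73 on the log2 scale (SE 0.20; edgeR adjusted p = 0.0103), and *Spry4* fell by 2.73 (SE 0.32; edgeR adjusted p = 0.0109). With the random block in limma voom both calls were lost, at -1.69 (adjusted p = 0.0790 with an estimated correlation) and -2.71 (adjusted p = 0.0995 with an estimated correlation). The unblocked limma voom fit kept both (adjusted p = 0.0096 and 0.0067).

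The *Spry2* level was 2.79-fold lower at D7 in Con and 3.90-fold lower in OE. For *Spry4* the corresponding values were 4.49-fold and 10.2-fold.

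Summed over the 3 Sprouty genes, the level was between 94.60 and 122.90 FPKM at D0, 39.19 in Con-D7 and 26.52 in OE-D7. *Spry1* made up 7.09% to 10.4% of that sum at D0, 35.7% in Con-D7 and 41.0% in OE-D7. *Spry4* led the family in every D0 library and *Spry1* in both D7 libraries. The order by FPKM in Con-D7 was *Spry1*, *Spry4*, *Spry2*, and in OE-D7 it was *Spry1*, *Spry2*, *Spry4*.

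*Dusp4* (chr8:34807610-34819894), a nuclear phosphatase of MAP kinases, varied most between D0 libraries. It was at 3.53 and 8.23 FPKM in Con-1 and Con-2 and at 3.08 and 5.87 in OE-1 and OE-2, so that library 2 was 2.33-fold library 1 in Con and 1.91-fold in OE. The D7 levels of 13.10 FPKM in Con-D7 and 11.12 in OE-D7 were above all 4 of these. The log2 fold change of 1.24 (SE 0.37) did not pass (edgeR adjusted p = 0.0896), although DESeq2 called it.

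*Dusp6* (chr10:99263231-99267489) encodes the cytoplasmic phosphatase that acts on ERK1/2 and is a common read-out of FGF signalling. It was at 21.32 FPKM in both Con-1 and Con-2, at 16.40 and 24.08 in OE-1 and OE-2, and at 26.91 in Con-D7 and 18.79 in OE-D7. The groups overlapped, with D7 above the D0 range in Con and inside it in OE. The log2 fold change was 0.12 with an interval from -0.34 to 0.57 (edgeR adjusted p = 0.700). The ratio of *Dusp6* to *Dusp4* in FPKM ran from 2.59 to 6.04 at D0 and was 2.05 in Con-D7 and 1.69 in OE-D7.

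RefSeq promoter windows of GRCm38.p6 were present for 6 of the 10 genes, as 7 windows, and the 250 bases before the start were searched on both strands. The short ETS core CGGAA, which the ETV factors can bind, was found in the window of *Dusp6* alone among these 6 genes and in 25.2% of all 32851 windows. The longer ETS motif CCGGAAG, the AP-1 motif TGANTCA and the CRE motif TGACGTCA were in none of the 7 and in 6.91%, 6.75% and 1.55% of all windows. The *Dusp6* matches are shown because they were the only matches to any of these motifs in the 7 windows. Capitals mark CGGAA or its reverse complement TTCCG, each line is the + strand from 5′ to 3′, and the first and second lines overlap. A match is a description of the letters and was not tested as a binding site.
*Dusp6*, 155 bases before the start, chr10:99263065-99263092: cttatccggagCGGAAattcctttccgt
*Dusp6*, 144 bases before the start, chr10:99263076-99263103: cggaaattcctTTCCGtttttgtgaatg
*Dusp6*, 61 bases before the start, chr10:99263159-99263186: gcaacagccccTTCCGcagcgcgctcat

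*Etv4* (chr11:101769747-101785310) and *Etv5* (chr16:22381313-22439570) encode ETS transcription factors of the PEA3 group and held 2 of the 3 highest FPKM of the 10 genes in every D0 library. *Etv4* was at 73.58, 92.93, 68.61 and 84.21 FPKM in Con-1, Con-2, OE-1 and OE-2, and at 23.44 in Con-D7 and 21.75 in OE-D7. *Etv5* was at 115.52, 90.70, 122.29 and 102.86 FPKM in the same D0 order, and at 71.28 in Con-D7 and 49.51 in OE-D7. Both genes were lower in each D7 library than in any D0 library. The D0 order also differed, since *Etv4* was higher and *Etv5* lower in library 2 than in library 1 of both genotypes.

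*Etv4* fell by 1.83 on the log2 scale (SE 0.13; edgeR adjusted p = 0.0041), by nearly the same factor in Con (3.55-fold) and OE (3.51-fold). With the replicate number as a random block the log2 fold change was -1.82 and the call held (adjusted p = 0.0147 with an estimated correlation). The *Etv5* log2 fold change of -0.86 (SE 0.22) did not pass (edgeR adjusted p = 0.0683), while DESeq2 and limma-trend on log2(FPKM + 0.5) called it. The 2 transcripts together summed to 183.63 to 190.9 FPKM at D0, to 94.72 in Con-D7 and to 71.26 in OE-D7. The D0 sums were closer to each other than the D0 levels of either gene.

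**Figure D2:**
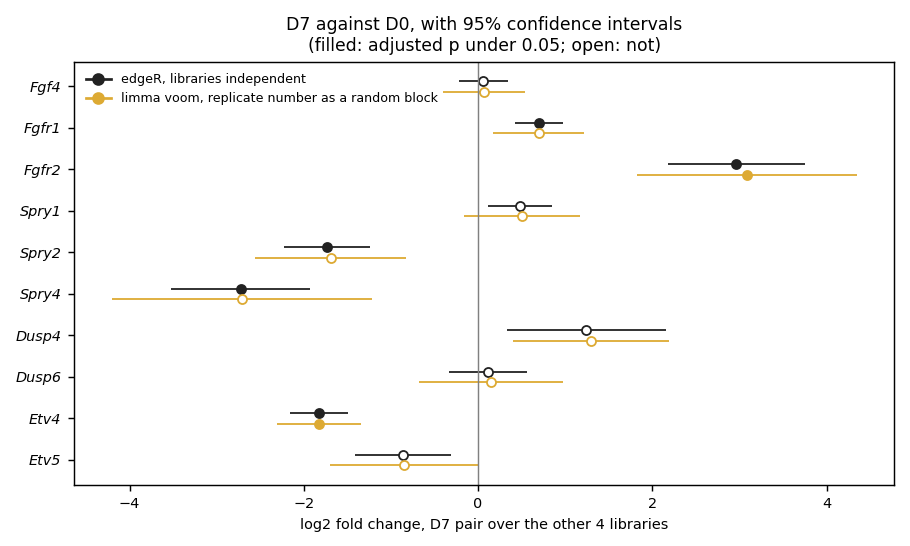
Log2 fold change of the D7 pair over the other 4 libraries (horizontal axis) with 95% confidence intervals for the 10 genes; black is edgeR with independent libraries, yellow is limma voom with the replicate number as a random block, and filled points have an adjusted p below 0.05. Filled black points are *Fgfr1*, *Fgfr2*, *Spry2*, *Spry4* and *Etv4*, and filled yellow points only *Fgfr2* and *Etv4*.

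Across the 10 genes the median log2 fold change of D7 over D0 was 0.09, against -0.03 over all genes tested, since the higher and lower members offset each other. Without adjustment, 8 of the 10 had a p below 0.05, compared with 29.9% of all genes. Among the targets and inhibitors the directions were mixed: *Spry2*, *Spry4* and *Etv4* fell, and *Dusp6* was within the D0 spread in OE. Without passing the test, *Etv5* had lower D7 levels and *Spry1* and *Dusp4* had higher ones. With the random block in limma voom 2 of the 10 were called against 1.7% of all genes, and without the block the same tool called the 5 genes that edgeR did. Without OE-1, or without OE-2, *Fgfr1* was lost and 4 passed. Without Con-2, 7 passed.

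Within Con ESCs alone, Con-D7 against Con-1 and Con-2, none of the 10 passed in edgeR, where 0.0217% of all genes did, and 6 had an unadjusted p below 0.05, compared with 9.7% of all genes. The log2 fold changes were 2.50 for *Fgfr2*, 0.55 for *Fgfr1*, -1.53 for *Spry2*, -2.19 for *Spry4* and -1.84 for *Etv4*. DESeq2 called 4 of the 10, *Fgfr2*, *Spry2*, *Spry4* and *Etv4*, and limma called none. Without Con-1 edgeR called 3 and without Con-2 it called 5, while without OE-1 or OE-2 it called *Spry4* alone. Each of these values rests on 1 D7 library.

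Within OE ESCs, OE-D7 against OE-1 and OE-2, edgeR again called none of the 10, compared with 0.21% of all genes, and 6 had an unadjusted p below 0.05, compared with 15.9%. The log2 fold changes were 3.39 for *Fgfr2* (edgeR adjusted p = 0.0899), 0.84 for *Fgfr1*, -1.96 for *Spry2*, -3.34 for *Spry4* (edgeR adjusted p = 0.0580), -1.81 for *Etv4* (edgeR adjusted p = 0.0821) and -1.19 for *Etv5*. DESeq2 called 5, namely *Fgfr2*, *Spry2*, *Spry4*, *Etv4* and *Etv5*, and limma called *Spry4* alone. Leaving out Con-1 or Con-2, which enter this fit only through the shared spread, raised the edgeR count to 7, and without OE-1 or OE-2 *Spry4* alone was called.

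Both genotypes gave the same sign for 8 of the 10 genes. The exceptions were *Fgf4*, at 0.13 in Con and -0.02 in OE, and *Dusp6*, at 0.32 and -0.10. The difference between the genotypes was tested as an interaction, the D7 effect in OE minus that in Con. None of the 10 passed in edgeR, DESeq2 or limma, and the share called over all genes in edgeR was 0%, with 0.5% at an unadjusted p below 0.05. The only member with an unadjusted p below 0.05 was *Spry4*, whose difference was -1.15 on the log2 scale with an interval from -2.04 to -0.26 (edgeR adjusted p = 1). For *Fgfr2* the difference was 0.89 with an interval from -0.81 to 2.58, and for *Etv4* it was 0.03 with an interval from -0.74 to 0.80.

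The comparison that the *Dppa3* design implies, OE against Con in libraries 1 and 2, gave no called difference. In edgeR 0 of the 10 genes passed, as did 0% of all 13494 genes tested, and 0 of the 10 had an unadjusted p below 0.05, compared with 0.459% of all genes. *Dppa3* did not pass either, at a log2 fold change of 5.75 (edgeR adjusted p = 0.430). DESeq2 and limma also called none of the 10. The log2 fold changes of OE over Con ran from -0.43 for *Dusp4*, with an interval from -1.82 to 0.96, to 0.23 for *Spry4*, with an interval from -0.27 to 0.73. For *Fgf4* the value was -0.19 with an interval from -0.59 to 0.21, and for *Etv4* it was -0.17 with an interval from -0.60 to 0.27. Only for *Fgf4* did OE-1 and OE-2 both lie outside the Con range, below it, compared with 15.6% of all genes without overlap in either direction.

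With the replicate number as a block, which narrows the intervals, 0 of the 10 were called, compared with 0.889% of all genes. Under that block 4 had an unadjusted p below 0.05, compared with 7.95% of all genes: *Fgf4* at -0.19, *Dusp4* at -0.40, *Etv4* at -0.16 and *Spry4* at 0.23 on the log2 scale. For *Fgf4* the blocked interval ran from -0.35 to -0.03 (edgeR adjusted p = 0.484). Over all 6 libraries with a term for D7, 0 of the 10 passed in edgeR, DESeq2 or limma and 0 had an unadjusted p below 0.05, compared with 0% called and 1.3% unadjusted over all genes. The log2 fold changes there were -0.25 for *Fgf4*, -0.27 for *Dusp6* and -0.38 for *Dusp4*. With the block added, 0 of the 10 were called, compared with 0.00724% of all genes, and *Fgf4*, *Dusp4* and *Etv4* had an unadjusted p below 0.05, compared with 8.55% of all genes.

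Taken pair by pair, as log2 ratios of OE over Con on the FPKM + 0.5 scale, the number of members lower in OE was 7 of 10 in pair 1, 6 in pair 2 and 8 in the D7 pair, compared with 38.7%, 43.2% and 45.1% of all 13809 genes. *Fgf4* was lower in OE in every pair, at -0.04, -0.26 and -0.32, as were *Dusp4* at -0.17, -0.45 and -0.23 and *Etv4* at -0.10, -0.14 and -0.11. The 2 widest ratios were in the D7 pair, *Fgfr2* at 0.84 and *Spry4* at -0.85, and that pair also had *Etv5* at -0.52, *Dusp6* at -0.51 and *Spry2* at -0.48. For *Dusp4* and *Etv4* pair 2 had the wider ratio. The median of the D7 pair over the 10 genes was -0.33, against 0.03 over all genes. Pairs 1 and 2 had member medians of -0.05 and -0.08, against 0.05 and 0.03. The D7 pair has 1 library per genotype, so its ratios have no replicate check.

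**Figure D3:**
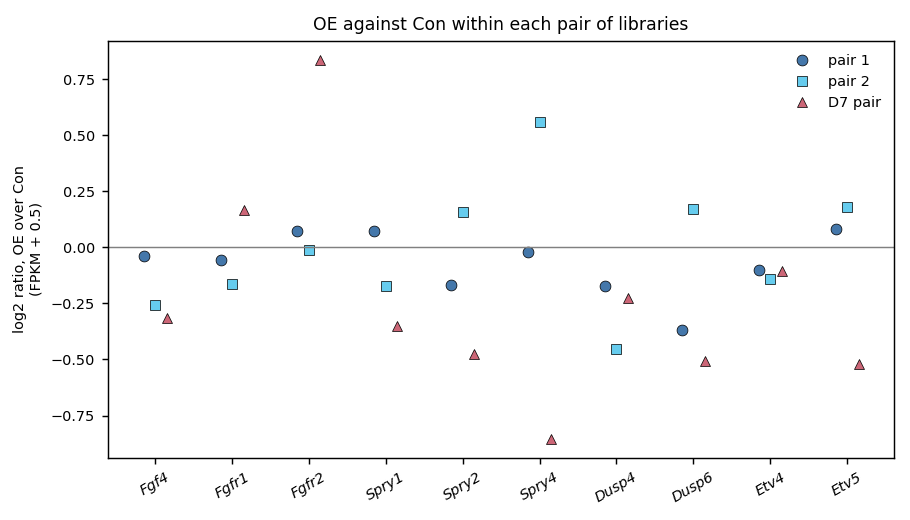
Log2 ratio of OE over Con (vertical axis, from FPKM + 0.5) within pair 1 (circles), pair 2 (squares) and the D7 pair (triangles) for each of the 10 genes. *Fgf4*, *Dusp4* and *Etv4* lie below 0 in every pair, and the D7 pair has *Fgfr2* at 0.84 and *Spry4* at -0.85.

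The remaining genes of the pathway were taken from lists of 103 genes, of which 86 passed the filter. Of these, 14 passed in D7 against D0 in edgeR, 11 higher and 3 lower (16.3%, compared with 9.83% of all genes), and 2 of these, *Dusp9* and *Etv1*, kept their call with the random block. *Fgf5*, *Gpc6* and *Hs6st2*, all called, and *Fgf10*, not called, had a D0 mean under 0.5 FPKM and were tested only through their D7 levels. Without these genes 11 of 82 passed. In OE against Con none of the 82 tested passed in edgeR, and none had an unadjusted p below 0.05. The lists were chosen with results of these libraries known and give no independent evidence of a direction.

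Among 12 other *Fgf* and *Fgfbp* genes tested, *Fgf5*, a marker of the primed epiblast, was the only one called, near the 9.83% of all genes. It was tested only through its D7 levels, and its call was lost with the random block (adjusted p = 0.133 with an estimated correlation). It was listed between 0 and 0.11 FPKM at D0 and at 3.10 in Con-D7 and 0.83 in OE-D7. Of 11 other receptors and co-receptors, 3 were called higher, compared with 6.77% of all genes. All 3 are glypicans, the cell-surface heparan sulphate proteoglycans that present FGF to its receptors. *Gpc4* was at 5.78 to 7.45 FPKM at D0 and at 14.67 and 22.24 at D7, *Gpc1* at 6.40 to 6.81 and at 13.97 and 23.76, and *Gpc6*, tested only through its D7 levels, at 0.19 to 0.36 and at 0.82 and 1.54. All 3 calls were lost with the random block (adjusted p = 0.128, 0.187 and 0.274 with an estimated correlation). Without *Gpc6*, 2 of 10 were called in edgeR.

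Of 11 genes of heparan sulphate synthesis and editing, 2 were called higher, compared with 6.77% of all genes. Neither call held with the random block (adjusted p = 0.05002 for *Hs6st2* and 0.321 for *Sulf1* with an estimated correlation). *Hs6st2*, a 6-O-sulphotransferase, was between 0.09 and 0.25 FPKM at D0 and at 2.47 in Con-D7 and 4.70 in OE-D7 (log2 fold change 4.14, edgeR adjusted p = 0.0066), so it too was tested only through D7. *Sulf1*, which removes 6-O-sulphate, had a log2 fold change of 0.71, and without *Hs6st2* it was the only 1 of 10 called in edgeR. Of 23 adaptors and kinases of the cascade 21 did not pass and 2 were called, near the 9.83% of all genes. The 2 were *Rras2*, a RAS-related GTPase, at 1.42 and *Sos2*, an exchange factor for RAS, at 1.07 on the log2 scale. Both calls were lost with the random block (adjusted p = 0.0684 and 0.116 with an estimated correlation).

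Other genes of negative feedback also went both ways. *Dusp9*, a cytoplasmic ERK phosphatase of ESCs, rose from 50.66 to 72.83 FPKM at D0 to 179.15 in Con-D7 and 221.74 in OE-D7, a log2 fold change of 1.68 (edgeR adjusted p = 0.0062) that held with the random block (adjusted p = 0.0221 with an estimated correlation). *Dusp5*, a nuclear ERK phosphatase, rose by 1.69 on the log2 scale, and *Spred1*, a Sprouty-related inhibitor of RAS signalling, fell by 0.92. Both of those calls were lost with the random block (adjusted p = 0.120 and 0.0953 with an estimated correlation). The other 10 genes of that list did not pass, where 9.83% of all genes were called.

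Among 16 further ERK-responsive genes, *Etv1*, the third member of the PEA3 group, fell with *Etv4*. It went from 7.95 to 9.35 FPKM at D0 to 2.64 in Con-D7 and 2.37 in OE-D7, a log2 fold change of -1.73 (edgeR adjusted p = 0.0051) that held with the random block (adjusted p = 0.0447 with an estimated correlation). *Epha4*, an ephrin receptor, fell by 1.35 on the log2 scale, and *Vgf*, which encodes a secreted peptide precursor, rose by 1.77 on the log2 scale. Neither of those calls held with the random block (adjusted p = 0.0776 and 0.0975 with an estimated correlation). The other 13 did not pass, where 9.83% of all genes were called.

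Of the 3 factors that sustain *Fgf4* transcription in ESCs, *Pou5f1* fell from between 575.03 and 682.98 FPKM at D0 to 383.78 in Con-D7 and 311.64 in OE-D7 (log2 fold change -0.88, edgeR adjusted p = 0.0196; adjusted p = 0.0795 with an estimated correlation). *Sox2* (-0.43) and *Nanog* (-0.18) did not pass. *Fgf4* stood at 94.53 and 75.77 FPKM in the same D7 libraries.

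Markers of other cell types moved with the D7 label as well, and their part in the values above was not tested. The summed FPKM of 8 trophectoderm markers was 30.17 to 51.51 at D0, 691.3 in Con-D7 and 1241.97 in OE-D7, with 6 of the 7 tested called higher, compared with 6.77% of all genes, and 5 of the 6 kept with the random block. *Krt7* went from 0.91 to 1.5 FPKM to 39.13 and 74.79, and *Hand1* and *Krt18* rose by 5.33 and 4.93 on the log2 scale. The lineage-defining *Cdx2* was at 0.05 to 0.15 FPKM at D0 and at 1.49 and 1.20 at D7 and was called higher (log2 fold change 3.83, edgeR adjusted p = 0.0123; adjusted p = 0.0658 with an estimated correlation). *Cdx2* and *Gata3* were tested only through their D7 levels, and without them 4 of 5 were called higher. *Elf5*, not tested, was at 0.38 and 0.66 FPKM at D7. Of 12 fibroblast and feeder markers, 9 were tested and 6 were called higher, compared with 6.77% of all genes, 5 of them also with the random block. The sum of the 12 was 36.08 to 63.92 FPKM at D0, 197.65 in Con-D7 and 423.59 in OE-D7. Among those tested and not called, *Thy1* had a negative log2 fold change, at -0.95 (edgeR adjusted p = 0.0593), and *Pdgfrb* and *Twist1* were at 0.94 and 0.34. *Acta2* went from 0.20 to 0.81 FPKM to 58.20 and 137.65, *Postn* and *Col3a1* had log2 fold changes of 6.72 and 6.50, and *Lum* was listed at 0 in Con-D7 and at 0.11 FPKM in OE-D7. *Postn*, *Col3a1* and *Col1a2* were tested only through their D7 levels, and without them 3 of 6 were called higher. The *Col3a1* call was lost with the random block (adjusted p = 0.0589 with an estimated correlation). These 2 sums were higher in OE-D7 than in Con-D7, as was *Fgfr2*.

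The 8 markers of ESCs and naive pluripotency summed to 1846.8 to 2206.6 FPKM at D0, 1333.36 in Con-D7 and 1230.31 in OE-D7, and 4 passed, all lower, compared with 3.06% of all genes. On the log2 scale *Esrrb* fell by 1.23, *Klf4* by 1.20 and *Tfcp2l1* by 0.96. With the random block *Esrrb* alone of the 4 was called (adjusted p = 0.0336 with an estimated correlation), against adjusted p = 0.0914 for *Klf4* and 0.157 for *Tfcp2l1*. Of the primed and early lineage markers 1 of 8 passed, *Fgf5*, near the 9.83% of all genes. *Fgf5* was tested only through its D7 levels, and its call was lost under the random block (adjusted p = 0.133 with an estimated correlation). Sums over the 8 ran from 38.58 to 50.36 FPKM at D0 and were 127.56 in Con-D7 and 60.37 in OE-D7. Of 8 primitive endoderm markers, 4 were tested and 2 were called higher, compared with 6.77% of all genes, *Dab2* at 2.15 and *Gata4* at 1.68 on the log2 scale. Neither held with the random block (adjusted p = 0.160 and 0.248 with an estimated correlation). *Pdgfra* at 1.75 and *Sox7* at -0.70 did not pass in edgeR. The list summed to 3.29 to 4.96 FPKM at D0, 8.63 in Con-D7 and 14.28 in OE-D7.

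**Figure D4:**
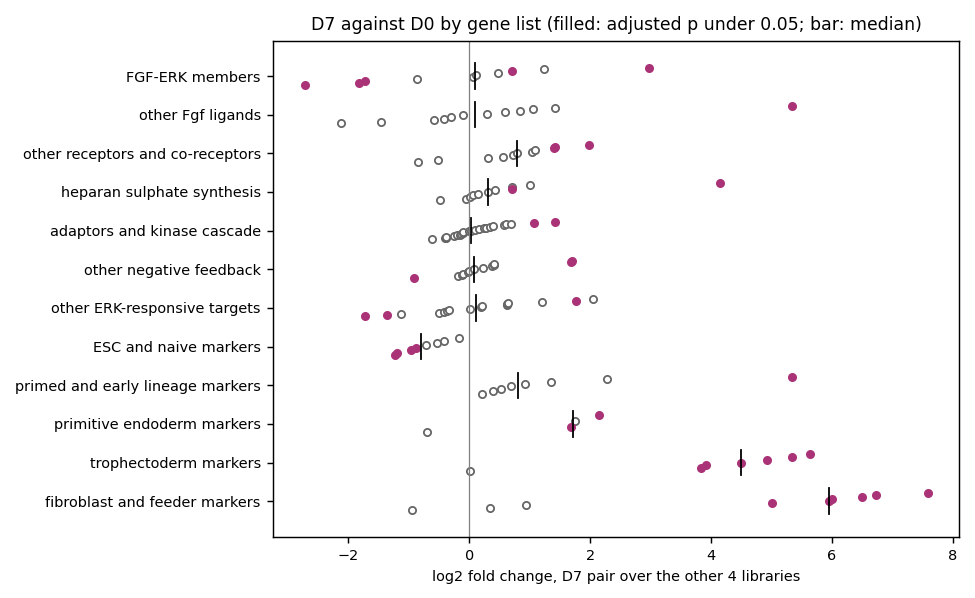
Log2 fold change of the D7 pair over the other 4 libraries (horizontal axis) for each tested gene of the 10 FGF-ERK members and of the other lists (rows); filled points passed at adjusted p below 0.05 in edgeR and vertical bars mark each list's median. The members spread to both sides of 0 around a median of 0.09, and the trophectoderm and fibroblast lists have medians of 4.50 and 5.95. These 2 medians include genes tested only through their D7 levels, *Cdx2* and *Gata3* in the first list and *Col1a2*, *Col3a1* and *Postn* in the second.

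Of the 9024 other genes with a mean of at least 5 FPKM, those whose log2(FPKM + 0.5) followed *Fgf4* most closely over the 6 libraries were *Usp21*, *Hist1h2an* and *Xylb*, with Pearson correlations of 0.99, 0.97 and 0.93. Those most like *Dusp6* were *Ptk2b*, *Rpl41* and *Flcn*, at 0.96, 0.96 and 0.92. The points are 3 same-numbered pairs of libraries, *Hist1h2an* and *Rpl41* belong to families of near-identical copies whose reads are hard to assign, *Usp21* ranged only from 17.07 to 18.66 FPKM, and with so many candidates over 6 points the ranking is a description of these libraries.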

How the data were processed

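The authors extracted total RNA, call the assay mRNA-seq and had the libraries sequenced on a BGISEQ-500. For each of the 6 libraries the deposited table holds, per gene, an estimated count and FPKM. Their methods name Bowtie2, mm10 and RSEM, whereas HISAT and the build GRCm38.p6 stand in the submitters' processing notes; versions are not given in the sources used here. The counts of Con-D7 and OE-D7 came from columns headed Average Read Count, those of the other libraries from columns headed Read Count. Other columns of averages were not used. Estimated counts were rounded and tested in edgeR 4.0.16 (quasi-likelihood F test, TMM) over every gene averaging 0.5 FPKM or more, with Benjamini-Hochberg adjustment over all of them. Alternatives used DESeq2 1.42.0, limma 3.58.1, other size factors, no filter, each library left out, and the replicate number as a block. A limma voom fit of D7 against D0 without the block was added after seeing the data. The numbers were taken to pair the libraries, since same-numbered deviations from genotype means correlated at 0.881, 0.756 and 0.889 over 12565 genes. The D7 libraries enter these means, so a D7 difference shared by both genotypes raises the 3 values without any pairing. Free of the D7 libraries, Con-2 minus Con-1 and OE-2 minus OE-1 correlated at 0.845. Number 3 is D7 in both genotypes, so in D7 against D0 the block was a random effect (limma voom, estimated correlation 0.746). The fit took that correlation as known, and with D7 in 1 number only its p-values can be too small. All 10 genes were named, with up to 3 higher and 3 lower called genes of each other list. The genes and lists were chosen with earlier results of these data known.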

Additional observations from a re-analysis of the deposited data

Results flagged for a closer look

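Among the 10 genes, *Fgfr1* and *Etv5* had an OE over Con ratio in the D7 pair that pointed the other way from both pairs 1 and 2. For *Fgfr1* the log2 ratio was -0.06 and -0.16 in pairs 1 and 2 and 0.17 in the D7 pair. The difference in the D7 effect between OE and Con was 0.30 on the log2 scale and did not pass (edgeR adjusted p = 1). For *Etv5* the log2 ratio was 0.08 and 0.18 in pairs 1 and 2 and -0.52 in the D7 pair, and the tested difference of -0.63 did not pass either (edgeR adjusted p = 1). With 1 D7 library per genotype, neither ratio has a replicate check.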

How the results depend on the processing

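With 2 D7 libraries of 1 replicate number, D7 and that number cannot be told apart, and leaving out either D7 library ended every D7 call among the 10 genes (28 of all genes were still called without Con-D7, 0 without OE-D7). Of the 10 genes, the number called in D7 against D0 was 2 with the replicate block as a random effect (limma voom), 5 in limma voom without it, and 0 to 7 with a library left out (0 without Con-D7 or OE-D7), with 1357 genes called in all, 2494 in DESeq2 and 0 to 2533 with a library left out. Within Con it was 4 in DESeq2 and 0 to 5 with a library left out, and within OE 1 without the filter, 1 in limma, 5 in DESeq2 and 0 to 7. The cause was not tested. In OE against Con and in the interaction no member was called under any alternative run. Values near 0 changed sign in 29 cases, none called. *Fgfr2* in OE against Con (libraries 1 and 2) was -0.0069 with other size factors, -0.0064 without the filter, -0.0069 in DESeq2 and -0.013 with the replicate block. With a library left out, the log2 values of the sign changes ran as follows. For D7 against D0, *Dusp6* ran from -0.074 to 0.32. Within OE, *Fgf4* ran from -0.13 to 0.11 and *Dusp6* from -0.31 to 0.16. In the interaction, *Dusp4* ran from -0.47 to 0.65 and *Etv4* from -0.072 to 0.14. For OE against Con in libraries 1 and 2, *Fgfr2* ran from -0.42 to 0.32, *Spry2* from -0.28 to 0.16, *Spry1* from -0.21 to 0.0067, *Dusp4* from -0.91 to 0.24, *Etv5* from -0.12 to 0.33 and *Dusp6* from -0.38 to 0.085. Over all libraries, *Fgfr1* ran from -0.14 to 0.022, *Dusp4* from -0.61 to 0.0098, *Fgfr2* from -0.0095 to 0.59, *Spry4* from -0.34 to 0.23 and *Etv5* from -0.31 to 0.080. No value exists within a genotype, or for the interaction, without the D7 library it rests on. The replicate block changed no other call of the 10 genes.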
